A study of Mus musculus with 57 samples.

Results

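The genes described here are 43 genes of the lysosome: soluble enzymes, membrane proteins, the proton pump and transcription factors that act on lysosomal genes. They were taken by symbol from a list drawn up with earlier results of these data known, and all 43 were found among the 50565 genes of the count table of the sex experiment and the 53278 genes of the table of the LPS experiment. By role, 11 are cathepsins and other proteases, 1 is a protease inhibitor and 9 act on sugar chains (8 glycosidases and the sulfatase Sgsh). Another 8 are grouped as lipid hydrolases and activators, with the progranulin gene Grn placed among them. Of the rest, 8 are membrane proteins and transporters, 4 belong to the proton pump and 2 are transcription factors. All 43 passed the filter on low counts in both tables, with at least 2106 counts in every library of the sex experiment and 56 in every library of the LPS experiment.

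Lysosomes are acidic compartments in which proteins, sugar chains and lipids are broken down after uptake from outside or delivery by autophagy. The vacuolar ATPase pumps protons into the lumen, hydrolases work at that acidic pH, and transporters in the membrane carry the products out. TFEB and TFE3 are transcription factors that bind E-box sequences of the CLEAR type in promoters of lysosomal genes, and in microglia, the resident phagocytes of the brain, lysosomes digest engulfed debris and process antigen.

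Polyadenylated RNA of CD11b-positive brain cells, labelled as microglia, was sequenced from wild-type mice (WT) and littermates deficient in the nucleotide receptor P2RY12 (KO). The sex experiment held adult animals: 4 WT and 5 KO males, and 4 WT and 5 KO females. Its labels name no treatment group, although the treatment text given with every sample describes the LPS injection. The LPS experiment held libraries labelled WT or KO and ns or LPS, with no sex in the labels. LPS is lipopolysaccharide, a component of bacterial cell walls, given into the peritoneum at 1 mg/kg, and ns is printed as written because the labels do not define it. The labels do not say whether each library of the LPS experiment is a separate animal, so p-values there measure the spread between these samples. In bulk samples such as these, fewer cells of a type and less RNA per cell cannot be told apart.

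In units of M counts (M for mega), totals ran from 58.5 to 318.5 over the 18 libraries of the sex experiment and from 15.9 to 168.4 over the 33 libraries of the LPS experiment. P2ry12 fitted the genotype label in all 18 animals, with 3007 CPM or more in WT and 526.4 or less in KO, where CPM is the TMM-scaled count per M counts. In the LPS experiment it ran from 3512 to 5405 CPM in WT ns, 400.4 to 1062 in WT LPS, 584.9 to 1235 in KO ns and 84.38 to 154 in KO LPS, with no overlap between genotypes at the same treatment label. These ranges leave out the 4 WT libraries of library number 2, which went against their treatment label. P2ry12 was at 482 CPM in the library labelled WT ns 1 and 927.2 in that labelled WT ns 5, and at 4461 and 12120 in those labelled WT LPS 1 and WT LPS 6. The acute-phase gene Saa3 was at 1785 CPM in the library labelled WT ns 1 and 2491 in that labelled WT ns 5, and at 1.6 and 3.2 in those labelled WT LPS 1 and WT LPS 6. These 4 libraries are shown apart and entered no group. The counts of WT LPS 8 and of WT LPS 9 were nearly the same (chi-square over degrees of freedom 1.86, and 8.32 or more for any other pair of a group), so their sum was used as 1 sample. This left 28 samples: 6 WT ns, 6 WT LPS, 8 KO ns and 8 KO LPS. Over all 33 libraries, 6 stood apart, with a median correlation to the others of 0.629 to 0.779 against 0.847 to 0.908 for the rest. All 6 belonged to the second of 2 library sets. These sets were inferred from the library names, where each labelled group occurs under 2 series numbers. The 6 libraries were WT ns 5 and WT LPS 6 by label, already set apart, and WT LPS 7, KO ns 5, KO ns 6 and KO LPS 5. Results of the LPS experiment are given with the last 4 (28 samples) and without them (24 samples), a fit chosen after the data were seen.

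Promoter sequences are shown because 12 of the 43 genes carry the core of the CLEAR element there. RefSeq windows on GRCm38.p6, the 250 bases before an annotated start, were matched by symbol to 38 of the 43 genes (45 windows), leaving Asah1, Atp6v1h, Ctsb, Ctsh and Npc1 without one. CACGTG, which reads the same on both strands, was found in 12 of the 45 windows (26.7%) and in 6.02% of all 32851 windows. The longer TCACGTGA, which contains it, was found in 4 of the 45 (8.9%) and in 0.79% of all. A pair of GAAA repeats with NN between them, of the interferon-response type, was searched on both strands and found in 2 windows, of Ctss and Lamp1 (4.4%), and in 2.98% of all. A match describes the letters and is not a measured binding site. The promoters of a protease (Ctsd), a membrane glycoprotein (Lamp1), a calcium channel (Mcoln1) and a pump subunit (Atp6v1a) were picked after the matches were seen. They lie at chr7:142387828-142388077 (minus strand), chr8:13158911-13159160 (plus strand), chr8:3500269-3500518 (plus strand) and chr16:44139260-44139509 (minus strand), and are written 5′ to 3′ with each CACGTG in capitals.
Ctsd: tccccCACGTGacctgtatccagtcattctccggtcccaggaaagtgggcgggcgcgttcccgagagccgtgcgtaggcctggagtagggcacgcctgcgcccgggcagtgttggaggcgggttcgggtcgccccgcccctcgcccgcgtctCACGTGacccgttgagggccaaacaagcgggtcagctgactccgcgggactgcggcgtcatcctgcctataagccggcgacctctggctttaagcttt
Lamp1: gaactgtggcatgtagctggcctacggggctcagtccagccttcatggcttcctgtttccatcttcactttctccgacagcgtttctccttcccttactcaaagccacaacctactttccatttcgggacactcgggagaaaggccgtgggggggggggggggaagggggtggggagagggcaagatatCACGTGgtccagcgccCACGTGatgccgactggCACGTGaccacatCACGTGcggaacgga
Mcoln1: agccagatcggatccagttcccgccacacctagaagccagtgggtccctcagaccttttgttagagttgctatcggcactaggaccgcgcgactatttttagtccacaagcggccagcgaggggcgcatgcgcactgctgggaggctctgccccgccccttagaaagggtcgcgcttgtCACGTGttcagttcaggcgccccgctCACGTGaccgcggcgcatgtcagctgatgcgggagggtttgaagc
Atp6v1a: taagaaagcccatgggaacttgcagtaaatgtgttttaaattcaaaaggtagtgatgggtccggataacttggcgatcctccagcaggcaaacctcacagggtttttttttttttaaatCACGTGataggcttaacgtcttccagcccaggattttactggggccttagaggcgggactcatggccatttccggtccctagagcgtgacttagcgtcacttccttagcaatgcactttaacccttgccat

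Lamp1 held 4 copies of the hexamer, Ctsd and Mcoln1 held 2 each and Atp6v1a held 1. The copy nearest to the start began 15 bases before it in Lamp1, 45 in Mcoln1, 98 in Ctsd and 131 in Atp6v1a. The other genes with a copy were Ctsa, Ctsf, Ctsl, Gaa, Glb1, Lgmn, Naglu and Sgsh. Of the 12 genes with the hexamer, 1 rose and 2 fell in KO over 28 samples, against 14.4% and 14.1% of all genes tested, and 3 rose and 5 fell over 24, against 26.3% and 28.4%. In WT 1 rose and 3 fell over 28 samples (all genes 15.5% and 15.2%), and 4 rose and 5 fell over 24 (26.3% and 27.8%). Of the 26 matched genes without it, 6 rose and 3 fell in KO and 5 rose and 2 fell in WT over 28 samples, and 10 rose and 7 fell in KO and 11 rose and 7 fell in WT over 24. Nothing about the hexamer is read from counts of this size.

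LPS moved lysosomal genes in both directions. The cathepsins Ctsc and Ctsl, the glucuronidase Gusb and the lipid enzyme Galc rose in both genotypes, and the cathepsin Ctsd and the hexosaminidase subunit Hexa fell. Between KO LPS and KO ns, 13 of the 43 genes were called (30.2%), 8 higher and 5 lower, against 28.5% of all 16088 genes tested, 14.4% higher and 14.1% lower (edgeR's quasi-likelihood test, Benjamini-Hochberg adjusted p under 0.05), a share near the background. Their median log2 fold change was 0.01, and that of all genes was 0.01. Without the libraries that stand apart, 29 of the 43 were called (67.4%), 16 higher and 13 lower, against 54.7% of 16071 genes (26.3% higher and 28.4% lower), and all 13 calls were kept in direction. Within the library sets, 26 of the 43 genes were called in set 1 alone and 3 in set 2 alone, which holds the libraries that stand apart. No share of all genes is given for these fits, so their counts are not read as results about lysosome genes. Beside this, 6 of 10 microglia markers fell in KO, among them Gpr34 (-3.54 ± 0.54), Siglech (-2.27 ± 0.20) and Fcrls (-1.63 ± 0.31). Their sum ran from 33400 to 52600 CPM in KO ns and from 21300 to 27200 in KO LPS, with none of the 10 at 0 in a whole group, and 9 of the 10 fell over 24 samples. Of the other marker lists, 3 of 10 genes of border-associated macrophages fell in KO, Pf4 (-2.32 ± 0.37), Mrc1 (-1.50 ± 0.20) and Ms4a7 (-1.31 ± 0.36). The sum of that list did not fall with them. It ran from 699 to 2820 CPM in KO ns (median 2140) and from 645 to 3420 in KO LPS (median 2960). The lowest sums were those of KO ns 6 and KO LPS 5, which stand apart. In WT the median sum was 2390 CPM in ns and 3420 in LPS. Over 24 samples 3 of the 10 fell and 1 rose in KO. Of 7 tested genes of lymphocytes 4 fell, with a summed level of 24.8 to 82.5 CPM in KO ns and 17.6 to 41.8 in KO LPS. Of 9 monocyte genes 2 rose and 1 fell, of 12 neutrophil genes 1 rose, and of 9 tested genes of astrocytes, neurons and oligodendrocytes 1 rose and 2 fell. The neutrophil rise was not kept over 24 samples, where 0 of the 12 rose and 1 fell in KO. In WT 0 of the 12 neutrophil genes rose and 3 fell over 28 samples, and 0 rose and 5 fell over 24. Microglia markers fell in WT too, 7 of 10 over 28 samples and 9 of 10 over 24. The part of these markers in the changes below was not tested.

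**Figure D1:**
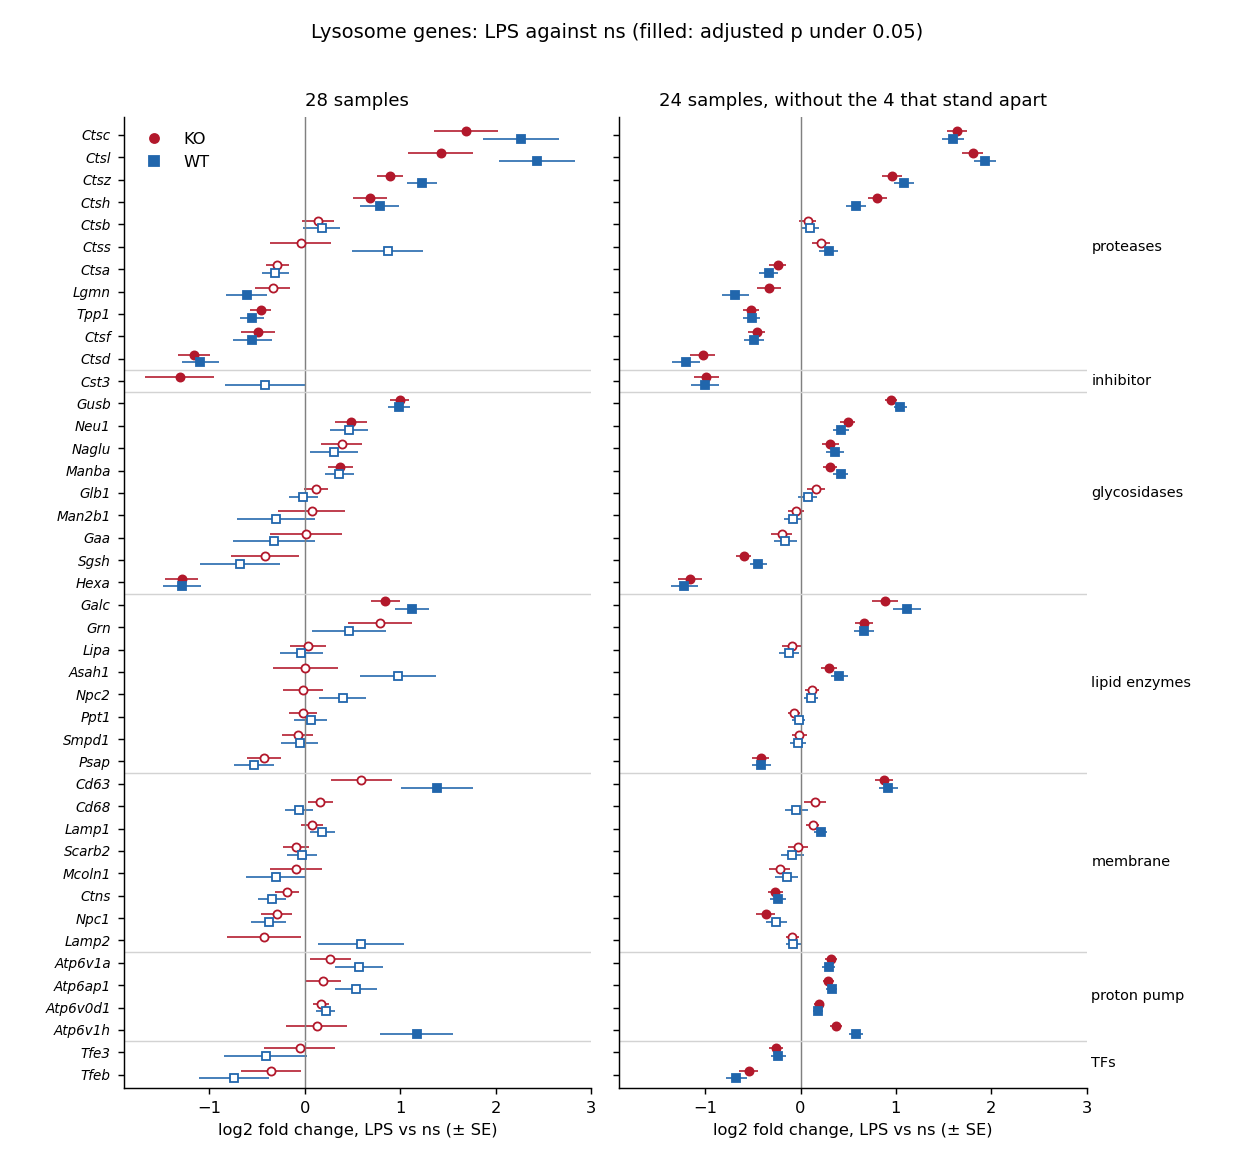
Log2 fold change between LPS and ns (± SE) of the 43 lysosome genes by role, in KO (circles) and WT (squares), over 28 samples (left) and over the 24 samples that do not stand apart (right); filled symbols have an adjusted p under 0.05. Ctsc, Ctsl, Ctsz, Ctsh, Galc and Gusb lie to the right of 0 and are filled in all 4 series, and Ctsd, Hexa, Ctsf and Tpp1 lie to the left of 0 and are filled.

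Among the 11 proteases, 7 were called in KO, 4 higher and 3 lower, where 28.5% of all genes were called. Counts by role, here and below, are of few genes and are not read as a trait of a role. Ctsc (chr7:87927233-87960083, plus strand, GRCm39) encodes the dipeptidyl peptidase that activates granule serine proteases. It ran from 469.6 to 1358 CPM in KO ns (median 579) and from 1240 to 5255 in KO LPS (median 1694). In WT it ran from 513.9 to 627.9 in ns (median 568.4) and from 1334 to 8631 in LPS (median 1831). The groups did not overlap in WT, and in KO only KO ns 6 reached into the LPS range. WT LPS 7 and KO LPS 5, which stand apart, gave the highest values. The log2 fold change was 1.69 ± 0.34 (adjusted p 0.000334) in KO, a 3.22-fold rise, and 2.27 ± 0.40 (adjusted p 8.93e-05) in WT, a 4.82-fold rise. Over 24 samples it was 1.64 ± 0.11 in KO and 1.60 ± 0.12 in WT.

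Ctsl (chr13:64509704-64518586, minus strand, GRCm39) encodes an endopeptidase of broad specificity. It ran from 603.3 to 3573 CPM in KO ns (median 768.9) and from 2112 to 5116 in KO LPS (median 2622). The WT values ran from 450.1 to 648.4 in ns (median 589.8) and from 1807 to 8222 in LPS (median 2209). The groups did not overlap in WT, and they overlapped in KO through KO ns 6 alone, since the KO ns libraries that do not stand apart ended at 773 CPM. For Ctsl the change on the log2 scale was 1.42 ± 0.34 (adjusted p 0.00201) in KO and 2.43 ± 0.40 (adjusted p 4.61e-05) in WT, and 1.80 ± 0.11 and 1.93 ± 0.12 over 24 samples. The carboxypeptidase Ctsz rose by 0.89 ± 0.14 on the log2 scale in KO and 1.23 ± 0.16 in WT. The aminopeptidase Ctsh rose by 0.68 ± 0.18 and 0.78 ± 0.20.

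The aspartic protease Ctsd, given in full after its values were seen, went the other way. It ran from 6139 to 9929 CPM in KO ns (median 7110) and from 1987 to 3715 in KO LPS (median 3434). In WT the level ran from 4303 to 8996 in ns (median 5784) and from 1914 to 3312 in LPS (median 2888). The ns and LPS ranges did not overlap in either genotype. Its change on the log2 scale was -1.16 ± 0.17 (adjusted p 5.15e-06) in KO and -1.10 ± 0.19 (adjusted p 8.89e-05) in WT. The tripeptidyl peptidase Tpp1 fell by 0.46 ± 0.11 in KO and 0.55 ± 0.13 in WT, and the cysteine cathepsin Ctsf fell by 0.49 ± 0.18 and 0.55 ± 0.21. Lgmn, the asparaginyl endopeptidase that matures cathepsins, had -0.34 ± 0.18 (adjusted p 0.182) in KO and -0.61 ± 0.21 (adjusted p 0.0289) in WT. Over 24 samples Lgmn was called in both, at -0.33 ± 0.13 and -0.68 ± 0.14. The carboxypeptidase Ctsa had -0.29 ± 0.12 (adjusted p 0.0829) in KO over 28 samples and -0.24 ± 0.09 (adjusted p 0.0323) over 24. The endopeptidases Ctsb (0.14 ± 0.17) and Ctss (-0.04 ± 0.32) were not called in KO in either fit.

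Cst3 (chr2:148713642-148717432, minus strand, GRCm39) encodes cystatin C, a secreted inhibitor of cysteine cathepsins. It ran from 10300 to 53270 CPM in KO ns (median 12320) and from 5370 to 12340 in KO LPS (median 6092). In WT it ran from 6389 to 15070 in ns (median 9597) and from 4130 to 23100 in LPS (median 5031). The LPS samples lay below every ns sample of their genotype except WT LPS 7 and KO LPS 5, which stand apart, and KO ns 6, also apart, gave the highest value. The log2 fold change was -1.31 ± 0.37 (adjusted p 0.00733) in KO and -0.42 ± 0.42 (adjusted p 0.484) in WT. Over 24 samples it was -0.99 ± 0.13 (adjusted p 1.22e-06) in KO and -1.01 ± 0.15 (adjusted p 4.12e-06) in WT. Of 10 other cystatins and cathepsin inhibitors tested, 6 rose and 1 fell in KO, where 14.4% of all genes rose and 14.1% fell. The stefin-family genes BC100530 (4.20 ± 1.02), Stfa2 (4.18 ± 0.87) and Stfa3 (3.51 ± 0.96) led them, and reads of these similar copies may be split between them.

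Among the 9 genes that act on sugar chains, 4 were called in KO, 3 higher and 1 lower, where 28.5% of all genes were called. Gusb (chr5:130011278-130031890, minus strand, GRCm39) encodes beta-glucuronidase and overlaps Vkorc1l1, so that reads may be shared. It ran from 294.5 to 369.2 CPM in KO ns (median 327.3) and from 592.5 to 695.1 in KO LPS (median 635.7). The WT values went from 285.8 to 354.6 in ns (median 315.6) and from 424.6 to 717.6 in LPS (median 644.2). No LPS sample overlapped an ns sample of its genotype. The log2 fold change was 1.00 ± 0.10 (adjusted p 1.99e-08) in KO and 0.99 ± 0.12 (adjusted p 3.3e-07) in WT, the lowest adjusted p of the 43 genes in both.

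Hexa (chr9:59446966-59472392, plus strand, GRCm39) encodes the alpha subunit of beta-hexosaminidase, which degrades a ganglioside. It ran from 740.8 to 1159 CPM in KO ns (median 935.3) and from 173.1 to 491.9 in KO LPS (median 416). In WT the level went from 607.8 to 901.5 in ns (median 716.3) and from 182.8 to 399.2 in LPS (median 284.9). All LPS samples lay below all ns samples of their genotype. Its log2 fold change was -1.29 ± 0.17 (adjusted p 2.08e-06) in KO and -1.29 ± 0.20 (adjusted p 1.89e-05) in WT. The sialidase Neu1 (0.48 ± 0.17) and the beta-mannosidase Manba (0.37 ± 0.13) rose in KO. The glucosaminidase Naglu had 0.39 ± 0.22 and the sulfatase Sgsh -0.42 ± 0.36, neither called, and over 24 samples both were called, at 0.31 ± 0.09 and -0.60 ± 0.08. The galactosidase Glb1 (0.12 ± 0.13), the mannosidase Man2b1 (0.07 ± 0.35) and the acid glucosidase Gaa (0.01 ± 0.37) were not called in KO in either fit. Glb1 and Sgsh overlap other genes with at least 10% of their count.

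Among the 8 genes grouped as lipid hydrolases and activators, Grn included, 1 was called in KO over 28 samples and 4 over 24. The shares of all genes were 28.5% and 54.7%. Galc (chr12:98168543-98226565, minus strand, GRCm39) encodes the galactosylceramidase that degrades a myelin lipid. It ran from 51.87 to 97.88 CPM in KO ns (median 65.81) and from 85.78 to 174.3 in KO LPS (median 114.6). The WT level went from 51.75 to 59.88 in ns (median 57.31) and from 92.47 to 151.2 in LPS (median 115.4). The groups did not overlap in WT, and in KO they overlapped through KO ns 6. The change was, on the log2 scale, 0.84 ± 0.15 (adjusted p 0.000114) in KO and 1.12 ± 0.18 (adjusted p 2.3e-05) in WT. The progranulin gene Grn had 0.79 ± 0.34 (adjusted p 0.0816) in KO and 0.67 ± 0.10 (adjusted p 3.66e-06) over 24 samples. KO LPS 5 was at 243.3 CPM of Grn, and the other KO LPS libraries ran from 2477 to 3207. The acid ceramidase Asah1 (0.30 ± 0.08) and the saposin precursor Psap (-0.42 ± 0.09) were called in KO over 24 samples only. The cholesterol carrier Npc2 (-0.02 ± 0.21), the acid lipase Lipa (0.03 ± 0.19), the thioesterase Ppt1 (-0.02 ± 0.15) and the acid sphingomyelinase Smpd1 (-0.08 ± 0.17) were not called in KO in either fit.

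**Figure D2:**
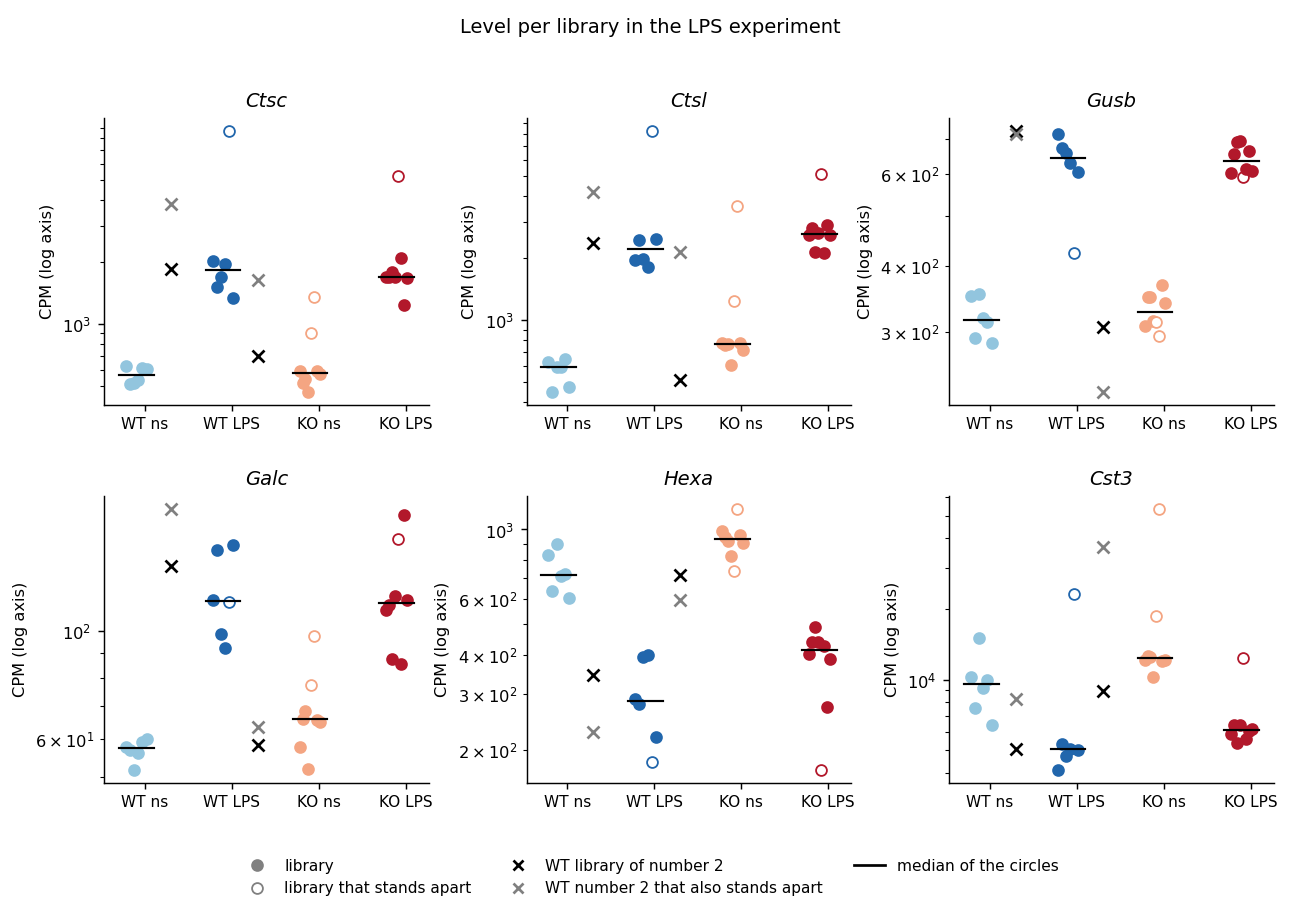
Level in CPM on a log axis of Ctsc, Ctsl, Gusb, Galc, Hexa and Cst3 in every library of the LPS experiment by labelled group; open circles are libraries that stand apart, crosses the WT libraries of number 2 at their labelled group, and bars the median of the circles. The crosses at WT ns lie above the WT ns circles for Ctsc, Ctsl, Gusb and Galc and below them for Hexa.

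Of the 8 membrane proteins and transporters, 0 were called in KO over 28 samples (1 higher and 2 lower over 24). The shares of all genes were 28.5% over 28 samples, and 26.3% higher and 28.4% lower over 24. The tetraspanin Cd63 ran from 162.9 to 924.9 CPM in KO ns (median 214.6) and from 304.2 to 835.1 in KO LPS (median 372.4). It had 0.59 ± 0.32 (adjusted p 0.183) in KO and 1.38 ± 0.38 (adjusted p 0.00654) in WT, and over 24 samples 0.87 ± 0.09 (adjusted p 3.91e-08) and 0.92 ± 0.10 (adjusted p 5.85e-08). The cholesterol exporter Npc1 was called in KO over 24 samples (-0.36 ± 0.10) and not over 28 (-0.30 ± 0.16), as was the cystine transporter Ctns (-0.26 ± 0.08 and -0.18 ± 0.13). The membrane glycoproteins Lamp1 (0.08 ± 0.12) and Lamp2 (-0.43 ± 0.39), the macrophage glycoprotein Cd68 (0.16 ± 0.13), the enzyme receptor Scarb2 (-0.09 ± 0.14) and the channel Mcoln1 (-0.10 ± 0.27) were not called in KO in either fit.

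The 4 proton pump genes were not called in KO over 28 samples, with 0.12 ± 0.32 for Atp6v1h, 0.27 ± 0.22 for Atp6v1a, 0.19 ± 0.19 for Atp6ap1 and 0.17 ± 0.09 for Atp6v0d1. Over 24 samples all 4 rose in KO, by 0.37 ± 0.06, 0.32 ± 0.07, 0.29 ± 0.06 and 0.19 ± 0.05 in that order, and all 4 rose in WT. In that fit 26.3% of all genes rose in each genotype, and 28.4% fell in KO and 27.8% in WT. Of 15 other subunits of the pump, 1 rose in KO over 28 samples, the membrane-sector subunit Atp6v0c (0.49 ± 0.12), where 14.4% of all genes rose. Over 24 samples 6 of the 15 rose and 2 fell in KO, with a median log2 fold change of 0.07. The transcription factors Tfeb (-0.35 ± 0.32) and Tfe3 (-0.06 ± 0.38) were not called in KO over 28 samples. Over 24 samples both fell, Tfeb by 0.54 ± 0.10 and Tfe3 by 0.25 ± 0.07 in KO, and by 0.67 ± 0.11 and 0.23 ± 0.08 in WT. Tfeb was at 49.3 to 62.29 CPM in the 6 KO ns libraries of that fit and at 28.5 to 44.44 in the 7 KO LPS libraries, without overlap.

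Further lysosomal genes came from lists beside the 43. Of 38 other hydrolases and cofactors tested, 6 rose and 3 fell in KO, led by the acid phosphatase Acp5 (3.22 ± 0.43), the thiol reductase Ifi30 (2.64 ± 0.20) and the sulfatase Galns (1.57 ± 0.27). Of 33 other membrane proteins, 2 rose and 2 fell, among them the channel Tpcn2 (1.63 ± 0.23), the transporter Slc15a3 (1.23 ± 0.18) and the sialomucin Cd164 (-0.98 ± 0.21). Of 20 regulators of TFEB and of nutrient sensing, 1 rose and 4 fell, among them the Rag GTPase Rragd (-1.70 ± 0.24), the TFEB relative Tfec (1.39 ± 0.41) and the calcineurin subunit Ppp3ca (-0.75 ± 0.09). Over 24 samples these 3 lists had 12 higher and 10 lower, 10 higher and 11 lower, and 4 higher and 9 lower. Of all genes, 14.4% rose and 14.1% fell in KO over 28 samples, and 26.3% and 28.4% over 24.

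In WT, 13 of the 43 genes were called over 28 samples, 8 higher and 5 lower, against 30.7% of all genes (15.5% higher and 15.2% lower), and 10 of them were called in KO in the same direction. Cst3, Manba and Neu1 were called in KO alone, and Cd63, Atp6v1h and Lgmn in WT alone. Over 24 samples 30 were called in WT (background 54.1%), 18 higher and 12 lower, against 26.3% and 27.8% of all genes, and 28 were called in both genotypes in the same direction. Npc1 was then called in KO alone, and Ctss and Lamp1 in WT alone. The test of the difference itself, the genotype-by-LPS interaction, called 0 of the 43 genes by edgeR (background 0.0%) and by DESeq2, with 1 at an unadjusted p under 0.05, Atp6v1h. Over 24 samples it also called 0 by both (background 0.00622%), with the same gene at an unadjusted p under 0.05 (singled out after its value was seen, with a difference of the KO change from the WT change of -1.05 ± 0.50 over 28 samples and -0.21 ± 0.10 over 24, log2 scale). Within the library sets, 27 genes were called in WT in set 1 alone and 1 in set 2 alone, again with no share of all genes given.

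The WT libraries of number 2 lay on the side opposite to their label in Gusb and Hexa, and only in part in Ctsc, Ctsl and Cst3. Ctsc was at 1853 and 3825 CPM in the library labelled WT ns 1 and that labelled WT ns 5, and at 698.8 and 1644 in those labelled WT LPS 1 and WT LPS 6. Gusb was at 724.9 and 717.7 in the former and 305.6 and 230.4 in the latter. Hexa was at 344.5 and 228.4 against 718.9 and 599.2. For Ctsc, Gusb and Hexa the libraries labelled WT ns lay within or just above the range of the WT LPS samples. Those labelled WT LPS lay within or near that of the WT ns samples, except the library labelled WT LPS 6 for Ctsc, which stands apart. The same library was at 2131 CPM of Ctsl, within the WT LPS range, and at 36610 of Cst3, above every other WT library. The library labelled WT ns 5 was at 8289 CPM of Cst3, within the WT ns range. With all libraries placed by their label, 0 of the 43 genes were called in WT by edgeR and 10 in KO. No share of all genes is given for that fit.

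The 4 libraries that stand apart shifted single lysosome genes far from their group. Relative to the other libraries of its group, KO LPS 5 ran from -4.09 (Tfe3) to 1.63 (Ctsc) on the log2 scale, and KO ns 6 from -2.73 (Man2b1) to 2.53 (Lamp2). WT LPS 7 ran from -2.64 (Man2b1) to 2.47 (Lamp2), and KO ns 5 from -2.80 (Tfeb) to 0.71 (Ctss). The shares of lysosome genes shifted by more than 1 on that scale were 44.2%, 18.6%, 44.2% and 51.2% in WT LPS 7, KO ns 5, KO ns 6 and KO LPS 5, against 39.7%, 17.9%, 42.2% and 40.9% of 12786 genes. Across the 43 genes the shift went with the GC content of the longest coding transcript, with a Spearman's rho of -0.61, -0.82, -0.66 and -0.83 in the same order. Over all 12786 genes rho was -0.49, -0.72, -0.48 and -0.72. These rho values describe genes of 1 library each, and genes are not independent replicates. Cst3, with the shortest of these transcripts (860 bases) and 57.2% GC, was raised in all 4 (2.21, 0.63, 2.14 and 1.03), and Tfe3, at 57.3% GC, was lowered in all 4 (-1.99, -2.46, -2.51 and -4.09).

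**Figure D3:**
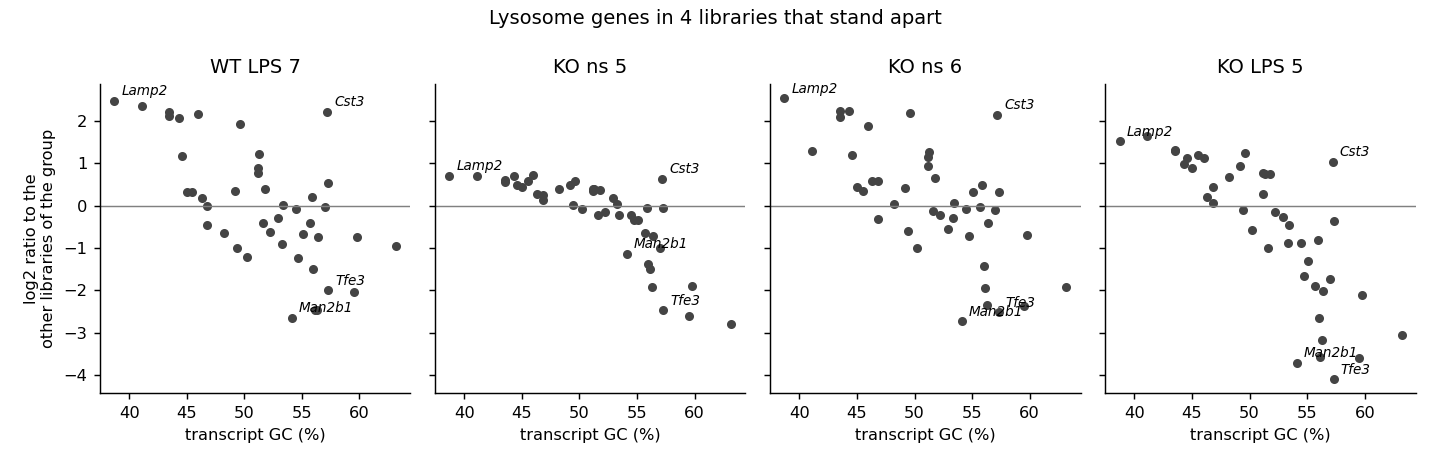
Log2 ratio of each of the 43 lysosome genes in a library that stands apart to the other libraries of its group, against the GC content in percent of its longest coding transcript, in 1 panel for each of 4 libraries. Ratios tend to fall with GC content, with rho between -0.83 and -0.61, and Cst3 is raised in all 4.

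Between KO and WT no lysosome gene was called by edgeR over the 18 animals of the sex experiment, and the differences were small and mostly positive. Averaged over the sexes, 0 of the 43 genes were called by edgeR (background 0.432% of 31709 genes), with 18 at an unadjusted p under 0.05. DESeq2 called 6, all higher in KO: Ctsb, Ctsl, Cst3, Cd63, Hexa and Npc2. The backgrounds are edgeR's at an adjusted p under 0.05. No share of all genes is given for DESeq2 or for an unadjusted p under 0.05, here or below. Counts by either rule are therefore not read as results about lysosome genes. Of the 43 log2 fold changes, 38 were above 0, with a median of 0.10 against -0.01 for all genes. In females all 43 were above 0 (median 0.15, all genes -0.014). There 0 were called by edgeR (background 0.164%) and 1 by DESeq2, Cd63, with 16 at an unadjusted p under 0.05. In males 32 were above 0 (median 0.09, all genes -0.01), with 0 called by edgeR (background 0.00946%) or DESeq2 and 7 at an unadjusted p under 0.05. No share of all genes above 0 is given for these counts, and genes are not independent replicates. The sex-by-genotype interaction called 0 by both tools (background 0.0%), with 0 at an unadjusted p under 0.05. Between female and male WT animals both tools called 0 (edgeR background 0.0725%), with 0 at an unadjusted p under 0.05.

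**Figure D4:**
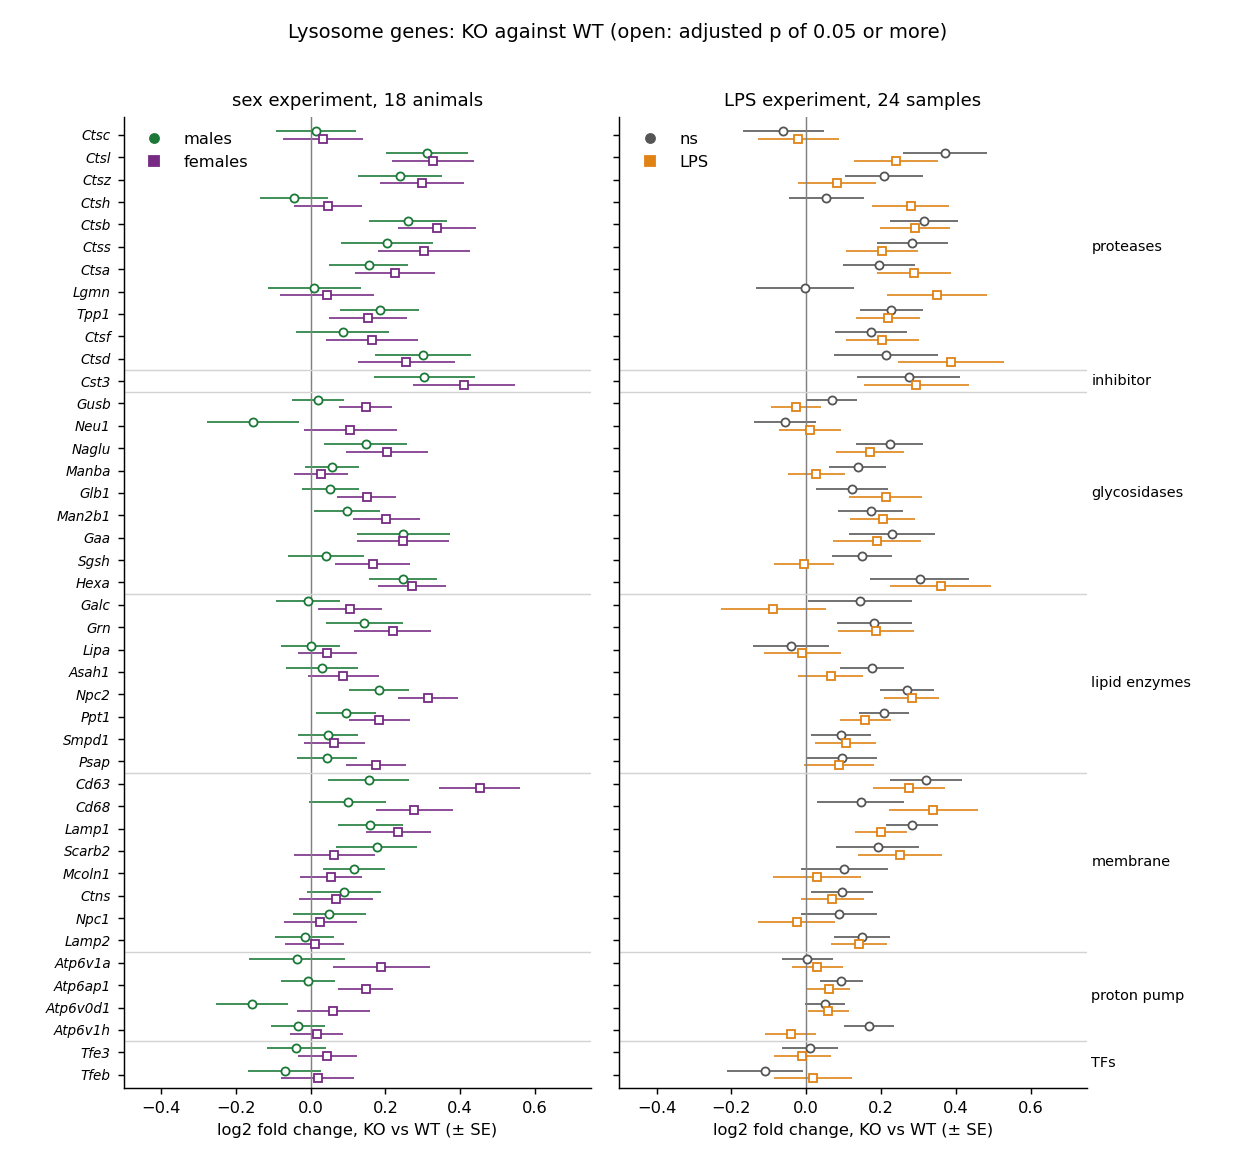
Log2 fold change between KO and WT (± SE) of the 43 lysosome genes by role, in males and females of the sex experiment (left, 18 animals) and at ns and LPS in the LPS experiment (right, 24 samples). All symbols are open, since no adjusted p was under 0.05, and most lie to the right of 0.

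The genes that DESeq2 called in the average over the sexes were singled out after their values were seen, with Cd63 given further below. Npc2, which hands cholesterol to Npc1, was at 318.2, 337.4, 339.2 and 357.7 CPM in the female WT animals and at 385.2, 407.2, 412.4, 426.3 and 471.4 in the female KO animals. In males it was at 324.5, 360.3, 362.7 and 392.4 in WT and 363.3, 393.2, 398.9, 432.1 and 454.6 in KO. The female groups did not overlap and the male groups did. Its averaged log2 fold change was 0.25 ± 0.06 (adjusted p 0.058) by edgeR. Ctsl was at 542.2, 678.3, 682.2 and 698.1 CPM in female WT and 777.8, 785.7, 799.4, 837.5 and 876.4 in female KO, again without overlap, and its averaged log2 fold change was 0.32 ± 0.08 (adjusted p 0.081). The averaged values were 0.26 ± 0.06 (adjusted p 0.0906) for Hexa, 0.30 ± 0.08 (adjusted p 0.0948) for Ctsb and 0.36 ± 0.10 (adjusted p 0.147) for Cst3. In females 14 of the 43 genes (32.6%) were higher in every KO than in every WT animal, against 1.7% of all genes tested and 2.98% of genes with a mean of at least 5 CPM, a level that all 43 reached. They were 5 proteases (Ctsa, Ctsb, Ctsl, Ctss and Ctsz), Cst3, the membrane proteins Lamp1, Cd63 and Cd68, the glycosidases Hexa and Man2b1, the lipid genes Npc2 and Ppt1, and the pump gene Atp6ap1. In males 0 of the 43 were (background 0.997%).

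Neutrophil markers differed among the WT animals. The summed level of 12 such genes, S100a8 and S100a9 among them, ran from 2660 to 50800 CPM in male WT and from 1480 to 30200 in female WT, the highest being male WT 5 and female WT 2. It ran from 3020 to 4760 in male KO and from 2540 to 6390 in female KO, with none of the 12 at 0 in a whole group. These 2 animals also had the highest sum of 9 monocyte markers and the lowest sum of 9 microglia markers among the WT animals of their sex. Of the 43 lysosome genes, 33 had their lowest WT value of each sex in these animals, Ctsb, Ctsc, Ctsd, Ctsl, Cst3, Hexa and Npc2 among them. For 4 genes, Cd63, Neu1, Atp6v0d1 and Atp6v1a, they had the highest. The shares of all genes with these orders were not computed, so the counts are not read as a trait of lysosome genes. Cd63 was at 68.56, 76.53, 83.8 and 107.2 CPM in male WT and 86.61, 86.69, 94.26, 99.61 and 100.7 in male KO, and at 67.14, 69.39, 73.34 and 87.66 in female WT and 94.23, 99.17, 99.53, 101.7 and 114.1 in female KO. With all 18 animals its averaged log2 fold change was 0.30 ± 0.08 (adjusted p 0.0998). Without these 2 animals, a fit chosen after the data were seen, it was 0.42 ± 0.06 (adjusted p 0.000401), 0.54 ± 0.08 (adjusted p 0.00107) in females and 0.30 ± 0.08 (adjusted p 0.396) in males, and Cd63 was the 1 gene of the 43 called in the average (background 0.969%) and in females (background 0.602%). Then 33 of the 43 averaged values were above 0 (median 0.06), 36 in females (median 0.10, against 43 and 0.15 with all animals) and 26 in males (median 0.04, against 32 and 0.09). At an unadjusted p under 0.05 there were 12 in females and 2 in males, against 16 and 7 with all animals, again with no share of all genes given. In females 16 genes then did not overlap, all higher in KO (background 3.54%). In males 2 genes were then higher in every KO animal, Cd63 and Atp6v1a (4.65%, background 2.59%), and 1 was lower, Tfe3 (2.33%, background 1.83%), shares near the background. The part of the neutrophil markers in the genotype differences was not tested beyond these values. The summed level of 10 markers of astrocytes, neurons and oligodendrocytes ran from 276 to 303 CPM in male WT and from 333 to 384 in male KO without overlap, and from 273 to 349 in female WT and from 306 to 383 in female KO with overlap. None of the 10 was called in either sex or at 0 in a whole group, and their part was not tested.

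**Figure D5:**
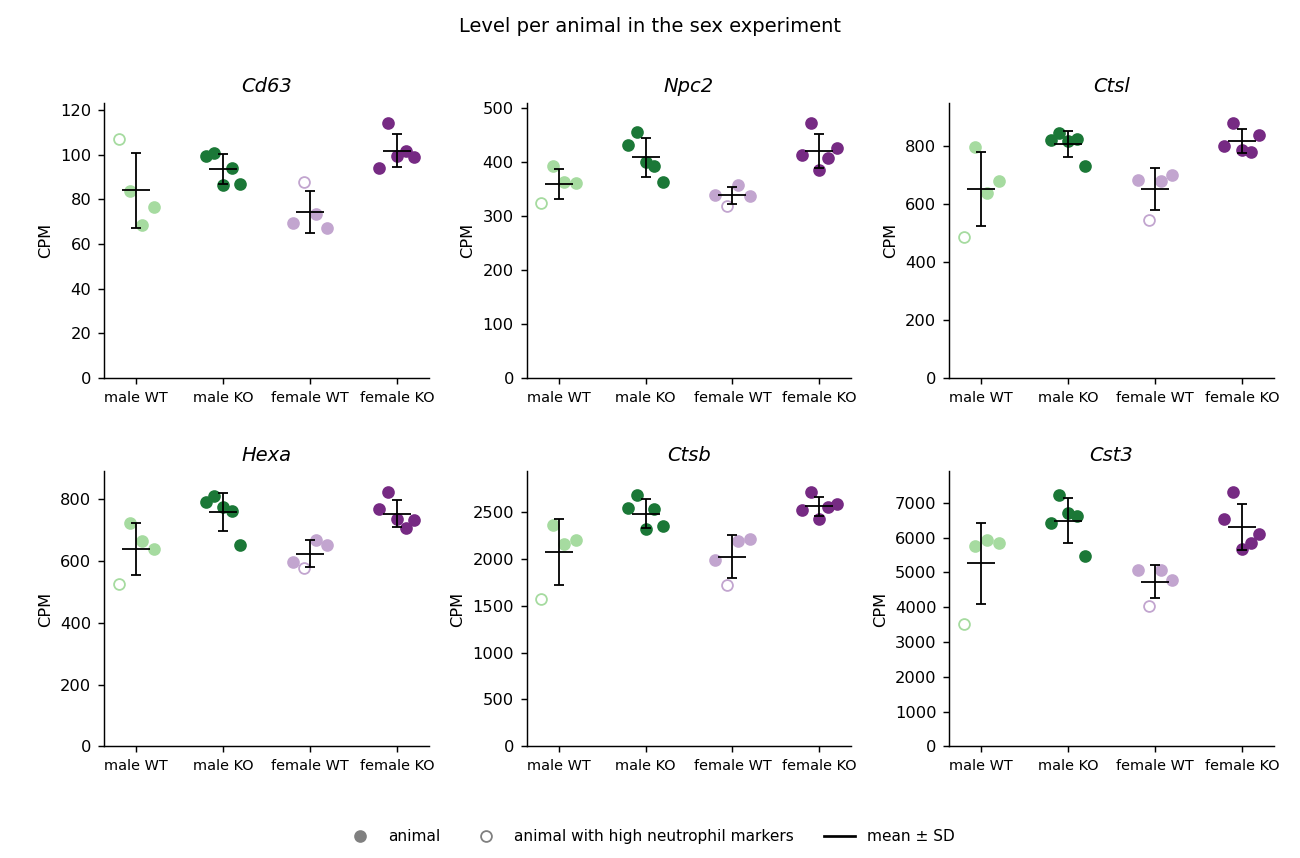
Level in CPM of Cd63, Npc2, Ctsl, Hexa, Ctsb and Cst3 in each animal of the sex experiment by sex and genotype, with mean ± SD; open circles are male WT 5 and female WT 2, the animals with the highest neutrophil marker sums. The open circles are the lowest WT value of their sex except for Cd63, where they are the highest.

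In the LPS experiment no lysosome gene was called between KO and WT by edgeR either. Over 28 samples, 0 were called at ns (background 0.0932%) and 0 at LPS (background 0.0746%), also by DESeq2, with 8 and 4 at an unadjusted p under 0.05. Over 24 samples 0 were called at ns (background 0.348%) and 0 at LPS (background 0.28%), with 11 and 19 at an unadjusted p under 0.05. DESeq2 then called Ctsb, Lamp1 and Npc2 higher in KO at ns and Npc2 at LPS. Again no share of all genes is given for DESeq2 or for an unadjusted p under 0.05. Npc2 ran from 413.4 to 512.1 CPM in WT ns and from 496 to 595.1 in KO ns, and from 444.3 to 560.4 in WT LPS and from 572.9 to 676.1 in KO LPS. Over these 24 samples the ns groups overlapped and the LPS groups did not. The log2 fold change of Npc2 by edgeR was 0.27 ± 0.07 (adjusted p 0.124) at ns and 0.28 ± 0.07 (adjusted p 0.106) at LPS. Of the 43 values over 24 samples, 38 were above 0 at ns (median 0.15, all genes -0.006) and 35 at LPS (median 0.16, all genes -0.009). Over 28 samples 34 were above 0 at ns (median 0.22, all genes -0.044) and 31 at LPS (median 0.11, all genes -0.035). No share of all genes above 0 is given. At LPS, over 24 samples, 8 genes (18.6%) were higher in every KO than in every WT sample. The shares were 0.783% of all genes and 0.999% of genes with a mean of at least 5 CPM. The 8 were Ctsa, Ctsb, Ctsd, Cst3, Lamp1, Lamp2, Npc2 and Ppt1. Over 28 samples none of these 8 kept this order, with Npc2 at 1167 CPM in WT LPS 7 and Ctsa at 582.4 in KO LPS 5. At ns, over 24 samples, 1 gene was higher in every KO sample, Atp6v1h (background 0.883%). Over 28 samples the summed level of the 10 astrocyte, neuron and oligodendrocyte markers ran from 193 to 256 CPM in WT ns and from 296 to 395 in KO ns without overlap, and from 162 to 196 in WT LPS and from 181 to 259 in KO LPS with overlap. Of the 9 tested, 1 was called at ns, the glutamate transporter gene Slc1a3, at 0.88 ± 0.15 (adjusted p 0.00431) over 28 samples and 0.78 ± 0.11 (adjusted p 0.000365) over 24, and 0 were called at LPS. None of the 10 was at 0 in a whole group, and their part in the lysosome differences was not tested.

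Together the 43 genes held a median of 4.79% of all counts in WT ns (3.89 to 5.72), 4.28% in WT LPS (3.88 to 6.23), 5.54% in KO ns (4.86 to 8.9) and 4.81% in KO LPS (4.49 to 5.87), with overlap between LPS and ns in both genotypes. In the sex experiment the share was 3.93% in male WT (2.45 to 4.03), 4.28% in male KO (3.97 to 4.5), 3.78% in female WT (3.08 to 3.87) and 4.11% in female KO (4.04 to 4.52). Every female KO animal lay above every female WT animal, and the male groups overlapped. Male WT 5 and female WT 2 had the lowest share of their groups.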

How the data were processed

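The authors deposited 2 tables of raw read counts per gene, of 18 animals and of 33 libraries. STAR 2.6.1, featureCounts of Subread, FastQC, DESeq2 and GRCm39 are named in the submitters' processing notes, with no role or order. Per the file headers, the gene length of the sex table equals the whole gene span. Low counts were even in 79.0% to 89.2% of cases there and in 39.7% to 45.6% in the LPS table, so the tables were never fitted together. Another 6 repeat libraries were not analysed here.

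Counts were tested with edgeR 4.0.16 (quasi-likelihood, TMM, filter on low counts), with all groups of a table in 1 fit and the library set as a covariate in the LPS experiment. P-values were adjusted by Benjamini-Hochberg over all genes tested. DESeq2 1.42.0 was an alternative, and the scripts were tested on simulated data. Members of the lysosome set and the other gene lists were chosen with earlier results of these data known. Genes given in full are, in each role, the 2 called genes with the largest change between KO LPS and KO ns. Of other lists, up to 3 called genes are named by the same rule.

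No label says that replicate numbers pair the samples. The 43 genes were matched by symbol, and Glb1, Gusb, Npc1, Ppt1, Sgsh and Tfe3 overlap genes with at least 10% of their count.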

Additional observations from a re-analysis of the deposited data

Results flagged for a closer look

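In groups of 4 to 10 samples, 12 of 48 tests for a single distant sample (Dixon's test) marked a lysosome gene, and chance marks about 1 in 20 groups. In the sex experiment these were Cst3 at 3519 CPM in male WT 5, Ctsl at 542.2 CPM in female WT 2, and Ctsl at 728.7 and Gusb at 278.2 CPM in male KO 5, each the lowest of its group. Male WT 5 and female WT 2 are the animals with the highest neutrophil marker sums, and the part of those markers was not tested.

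In the LPS experiment the distant values were all in libraries that stand apart and all the highest of their group. WT LPS 7 had 8631 CPM of Ctsc, 8222 of Ctsl and 23100 of Cst3. KO ns 6 had 3573 CPM of Ctsl and 53270 of Cst3. KO LPS 5 had 5255 CPM of Ctsc, 5116 of Ctsl and 12340 of Cst3.

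The library labelled WT ns 1 and that labelled WT ns 5, which entered no group, were above the highest WT ns sample in Ctsc, Ctsl, Gusb and Galc. Ctsc was at 1853 and 3825 CPM, Ctsl at 2366 and 4193, Gusb at 724.9 and 717.7, and Galc at 136.5 and 178.9.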

How the results depend on the processing

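The counts of lysosome genes called depended most on the libraries that stand apart. Where no share of all genes is given above for a setting, its count is not read as a result about lysosome genes. For LPS against ns in KO (13 genes), 29 were called without them, 29 with the replicate block added, 30 with RLE scaling and 31 with DESeq2. The same settings in WT (13 genes) gave 30, 28, 31 and 31. Library set 1 alone gave 26 in KO and 27 in WT, and set 2 alone gave 3 and 1. In WT, DESeq2 gave 20, and all libraries by label gave 0, also with the replicate block (0). Leaving out each of 28 samples in turn gave 10 to 16 in KO and 11 to 22 in WT, with 20 without KO ns 6 and 22 without KO LPS 5. The log2 fold change of Cst3 in WT reversed to 0.17 with all libraries by label and to 0.42 in set 2 alone, and was lost (0.00) with all libraries by label and the replicate block. The cause was not tested.

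For KO against WT averaged over the sexes (0 genes), DESeq2 called 6, no filter 1, a mean of at least 5 CPM 5, and the fit without the 2 animals high in neutrophil markers 1. In females DESeq2 called 1 and that fit 1. Leaving out each of 18 animals gave 0 to 2 in the average (2 without male WT 5, 1 without male WT 1, 1 without female WT 2) and 0 to 1 in females (1 without male WT 5 or female WT 2). At ns and at LPS, DESeq2 without the libraries that stand apart called 3 and 1. The fits without libraries or animals and those that combine settings were chosen after seeing the data. All other leave-one-out counts were 0.

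The replicate numbers were not taken to pair the samples, since no label says so and not every same-numbered pair had correlated deviations over 0.1. Such pairs were 5 of 8 in the sex experiment (mean r 0.126) and 17 of 35 in the LPS experiment (mean r 0.07), against 7 of 32 (mean r -0.03) and 38 of 111 (mean r -0.04) of different-numbered pairs. Of 16 and 27 samples, 8 and 14 correlated best with their own number, a hint of shared numbers from the data and not from the design. With the replicate block, 16 genes were called in KO and 20 in WT for LPS against ns, and 0 in the genotype contrasts and interactions.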
